A study of Mus musculus with 458 samples.

Results

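The cells described here are multilineage haematopoietic stem cells (HSCs) that carried Cd34 RNA, set against multilineage HSCs that carried almost none. They are single HSCs whose deposited status is Balanced, the status of the multilineage (MUL) mice. The classes were chosen by the Cd34 value itself: a cell at 1 RPKM or more (reads divided by gene length and by the read total of the cell) was called Cd34-expressing and a cell below 1 RPKM Cd34-low. That gave 57 Cd34-expressing and 106 Cd34-low cells out of 458 HSCs in all, with 22 Cd34-expressing and 56 Cd34-low cells in MUL mouse 1 and 35 Cd34-expressing and 50 Cd34-low cells in MUL mouse 2. Because Cd34 set the classes, its own values are a description, and no test of it was made.

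CD34 is a sialomucin of the cell surface and a relative of podocalyxin and endoglycan. In adult mice the long-term repopulating HSCs of the steady state are mostly low or negative for CD34, while short-term HSCs and multipotent progenitors carry it, and activated HSCs can gain it. CD38, a surface enzyme that consumes NAD, is used in mice together with low CD34 to mark long-term HSCs, and FLT3, the receptor of FLT3 ligand, appears on multipotent progenitors.

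The HSCs came from the bone marrow of mice transplanted with a single Vwf+ HSC and followed over 16 weeks, so the donor cells of a mouse descend from 1 transplanted cell. The transplanted HSC gave all blood lineages in MUL mice; in PEM mice it gave myeloid cells, erythrocytes and platelets, and in PLT mice platelets alone. Every group shared the strain, C57BL/6, and the gate, LSK CD150+CD48-CD45.2+, in which LSK stands for lineage-negative, Sca1+ and Kit+ cells and CD45.2 marks the donor. Both MUL mice carry the same experiment name, so they are 2 clones of 1 experiment, and CD34 protein is not part of the labelled gate.

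The RNA was checked against that gate. Kit, the stem cell factor receptor, averaged 73.8 RPKM in Cd34-expressing and 71.7 RPKM in Cd34-low cells of MUL mouse 1, and 99.4 RPKM in Cd34-expressing and 115 RPKM in Cd34-low cells of MUL mouse 2. Kit was at 1 RPKM or more in 59.1% of Cd34-expressing and 48.2% of Cd34-low cells of MUL mouse 1, and in 80% and 72% in MUL mouse 2. For Ly6a, which encodes Sca1, these shares were 59.1% and 51.8% in MUL mouse 1, and 68.6% and 74% in MUL mouse 2. RNA of a protein in the gate was thus often below 1 RPKM. Cd48, whose protein the gate leaves out, was at 1 RPKM or more in 0 of 57 Cd34-expressing and 2 of 106 Cd34-low cells. Slamf1, which encodes CD150, was near 0 in most cells and reached 1 RPKM in 13.6% of Cd34-expressing and 8.93% of Cd34-low cells of MUL mouse 1 and in 5.71% of Cd34-expressing and 4% of Cd34-low cells of MUL mouse 2.

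Cd34 RNA (the gene lies at chr1:194938821-194961292 of mm10) was close to all or none. In MUL mouse 1 the 22 Cd34-expressing cells ran from 2.25 over a median of 334 to 923.8 RPKM, and the highest Cd34-low cell had 0.655 RPKM. In MUL mouse 2 the 35 Cd34-expressing cells ran from 23.4 over a median of 247 to 717.1 RPKM, and the highest Cd34-low cell had 0.991 RPKM. Few cells lay near the limit: the next lowest Cd34-expressing cells had 76.7 RPKM in MUL mouse 1 and 58.9 RPKM in MUL mouse 2, and the next highest Cd34-low cells 0.585 and 0.751 RPKM. Of the Cd34-low cells, 24 of 56 in MUL mouse 1 and 14 of 50 in MUL mouse 2 were listed at 0, and the others held traces. Such a gap was not particular to Cd34. In the 56 Cd34-low cells of MUL mouse 1, Kit was at 1 RPKM or more in 27 and at 10 RPKM or more in 25. Cd27 differed, with 46 and 19 of these cells.

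**Figure D1:**
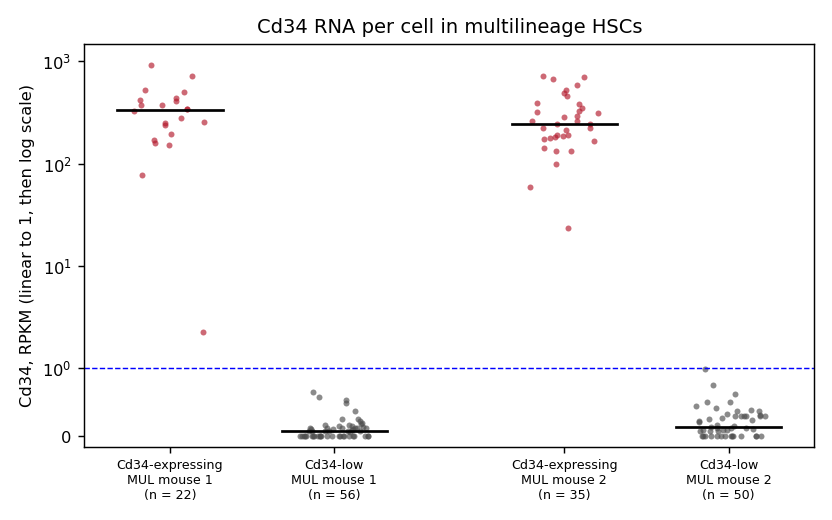
Cd34 in RPKM (linear up to 1, then on a log scale) for each cell of MUL mouse 1 and MUL mouse 2, Cd34-expressing cells left of Cd34-low cells, with the class median as a bar and the 1 RPKM limit as a dashed line. A single cell, at 2.25 RPKM in MUL mouse 1, lies between 1 and 10 RPKM.

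Cd34-expressing cells made up 28.2% of MUL mouse 1 (exact 95% interval 18.6 to 39.5%, counting error only) and 41.2% of MUL mouse 2 (30.6 to 52.4%). Elsewhere the same limit was passed by 19 of 93 and 4 of 25 cells of the PEM mice and by 1 of 93 and 6 of 84 cells of the PLT mice. The Cd34 means of the Cd34-expressing cells were 339 and 295 RPKM in the MUL mice, 180 and 178 RPKM in the PEM mice and 188 RPKM in PLT mouse 2.

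More genes were detected in Cd34-expressing cells, although fewer reads were mapped in them. The median count of detected genes was 2372 in Cd34-expressing and 2120.5 in Cd34-low cells of MUL mouse 1, a difference of 251.5, and 2734 in Cd34-expressing and 2367 in Cd34-low cells of MUL mouse 2, a difference of 367. A plate here is the P1 or P2 of a cell title, and the titles do not say whether these were separate plates. All 4 plates showed the same direction. The Cd34-expressing medians were 2672.5 and 2234 on the 2 plates of MUL mouse 1, and 2889 and 2626.5 on those of MUL mouse 2. The Cd34-low medians were 2153 and 2047 in MUL mouse 1, and 2394 and 2188 in MUL mouse 2. Median mapped reads, in contrast, were 4014322 in Cd34-expressing and 4695714 in Cd34-low cells of MUL mouse 1, and 4950943 in Cd34-expressing and 5137716 in Cd34-low cells of MUL mouse 2, with single cells from 1297688 to 9618367 reads. The share of mitochondrial reads had no common direction, with medians of 6.30% in Cd34-expressing and 5.86% in Cd34-low cells of MUL mouse 1 and of 5.24% in Cd34-expressing and 5.44% in Cd34-low cells of MUL mouse 2. The ranges of the classes overlapped in each of these measures. An exact two-sided test over 2 mice cannot go below p = 0.5, so the differences are given without a test.

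**Figure D2:**
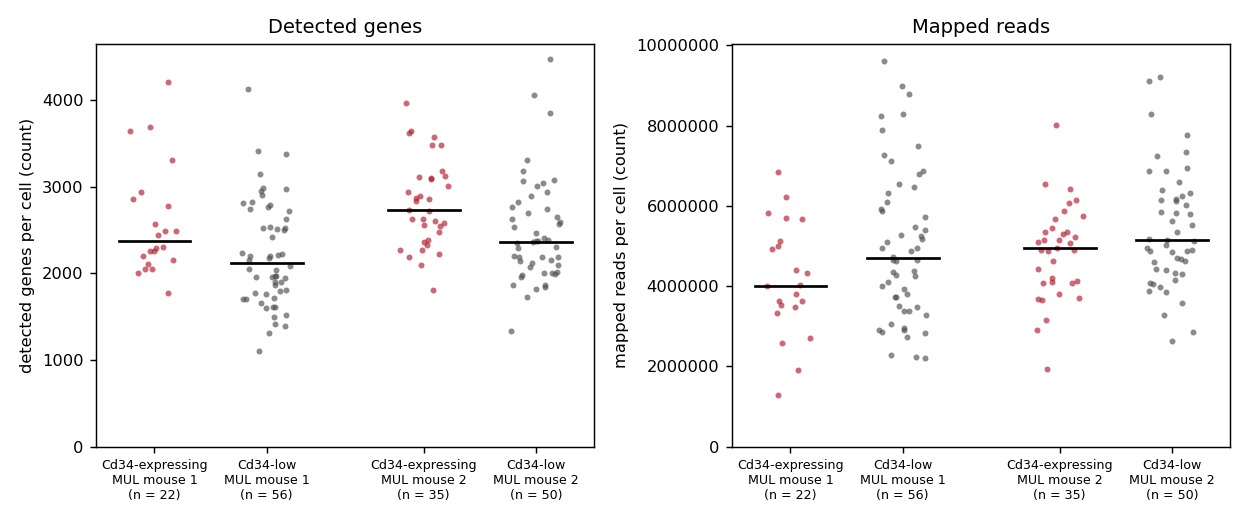
Detected genes per cell (count, left) and mapped reads per cell (count, right) in both MUL mice, Cd34-expressing left of Cd34-low, with class medians as bars. The medians of detected genes are 2372 in Cd34-expressing and 2120.5 in Cd34-low cells of MUL mouse 1, and 2734 in Cd34-expressing and 2367 in Cd34-low cells of MUL mouse 2.

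Cells with few detected genes were rarely Cd34-expressing. When the cells of each mouse were put into 4 bins by detected genes, the lowest bin held 1 Cd34-expressing cell of 20 in MUL mouse 1 (5%) and 2 of 21 in MUL mouse 2 (9.52%). The higher bins held 31.6, 42.1 and 35% in MUL mouse 1 and 42.9, 52.4 and 59.1% in MUL mouse 2. Over all cells of a mouse, Spearman's rho between Cd34 and detected genes was 0.30 (78 cells) and 0.34 (85 cells), with Cd34 itself one of the genes that can be detected. Within the Cd34-expressing cells it was -0.11 (22 cells) and 0.05 (35 cells). In PEM mouse 1, which did not enter the choice of cells, the medians were 3338 in Cd34-expressing and 3041.5 in Cd34-low cells, and in PEM mouse 2 2735 in 4 Cd34-expressing and 2755 in 21 Cd34-low cells.

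The whole transcriptome was then compared between the classes within each mouse, to find genes that agreed in both. Of 22645 genes, 5641 reached 1 RPKM in at least 10% of the cells of each mouse. Their difference is given as log2(mean RPKM + 1) of Cd34-expressing minus Cd34-low cells, a scale that understates the change of low genes. A mean over cells does not tell fewer cells with a gene from less RNA per cell, so shares of cells stand beside the means of the main genes. No gene passed limma on the 2 within-mouse differences at a Benjamini-Hochberg adjusted p of 0.05 (0 genes, 0.0% of those tested). The lowest adjusted p was 0.679, and 258 genes had an unadjusted p below 0.05, 101 of them higher and 157 lower in Cd34-expressing cells. The 2 mice had the same sign for 50.4% of genes: 1306 genes (23.2%) were higher in Cd34-expressing cells of both mice and 1539 (27.3%) lower, and Pearson's r between the mice across genes, which are not independent, was -0.02. At 2-fold or more in both mice, 87 genes (1.54%) were higher and 116 (2.06%) lower in Cd34-expressing cells.

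Genes were more often held by a larger than by a smaller share of the Cd34-expressing cells, which their means did not show. For 2542 genes (45.1%) the share of cells at 1 RPKM or more was higher in Cd34-expressing cells of both mice, and for 614 (10.9%) it was lower. The median difference in share was 4.71 percentage points in MUL mouse 1 and 4.0 in MUL mouse 2, beside median log2 differences of the means of -0.05 and -0.015. When the log2 values of the cells were averaged instead, which weights detection, the median over genes was 0.17 and 0.21, and the 2-fold counts were 158 higher and 0 lower genes, against the 87 and 116 above. With detected genes as a covariate on that scale they were 36 higher and 19 lower. With the Cd34-low cells reweighted to the detected genes of the Cd34-expressing cells, on the scale of means, they were 88 higher and 122 lower, and limma again called 0 genes (207 at an unadjusted p below 0.05).

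**Figure D3:**
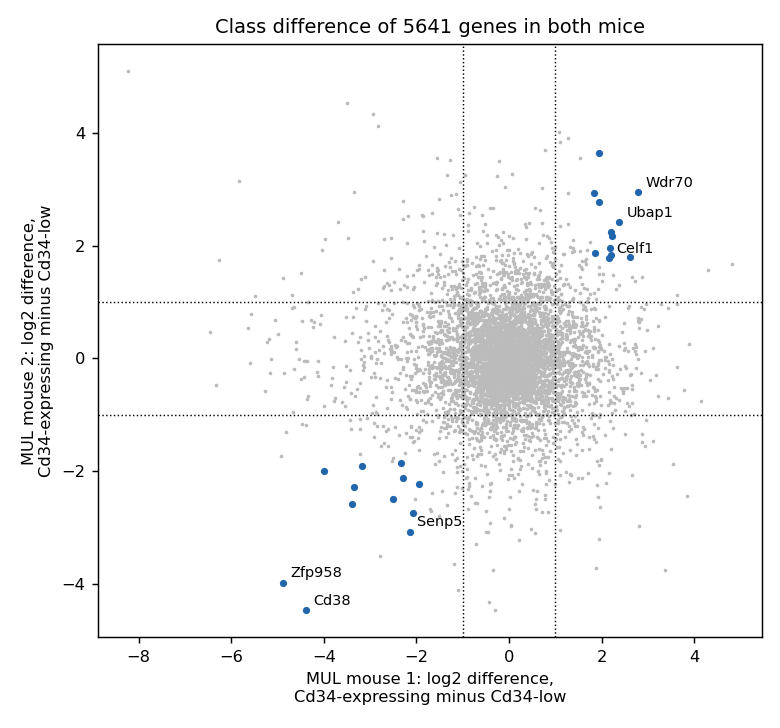
Log2 difference of mean RPKM (Cd34-expressing minus Cd34-low) in MUL mouse 1 on the x axis and MUL mouse 2 on the y axis for 5641 genes, with 2-fold limits dotted and the 12 leading genes of each direction in blue. The cloud has no slope (r = -0.02), and Cd38 and Zfp958 lie farthest out in the lower left.

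Of the genes tested, Cd38 (chr5:43868809-43912374 of mm10) had the largest difference shared by the 2 mice. It averaged 1.01 RPKM in Cd34-expressing and 41.3 RPKM in Cd34-low cells of MUL mouse 1, and 1.02 RPKM in Cd34-expressing and 43.5 RPKM in Cd34-low cells of MUL mouse 2 (log2 differences -4.39 and -4.46, mean -4.43 ± 0.64 SE, limma adjusted p = 0.679). Medians over cells were 0.771 RPKM in Cd34-expressing and 0.768 RPKM in Cd34-low cells of MUL mouse 1, and 0.39 RPKM in Cd34-expressing and 0.83 RPKM in Cd34-low cells of MUL mouse 2, so the gap came from a minority of cells. The highest Cd34-expressing cells had 4.13 and 7.80 RPKM in MUL mice 1 and 2, against 1400 and 440.9 RPKM for the highest Cd34-low cells. At 10 RPKM or more Cd38 was found in 0 of 57 Cd34-expressing and 17 of 106 Cd34-low cells, which were 4 of 56 in MUL mouse 1 and 13 of 50 in MUL mouse 2. A count of 0 allows a share of up to 13.6% of the Cd34-expressing cells of MUL mouse 1, above the 7.14% of Cd34-low cells there, and of up to 8.57% in MUL mouse 2, below the 26% of Cd34-low cells. These bounds cover counting error among cells of 1 mouse, and Cd38 was named by its difference, so they are no test of the classes. At the 1 RPKM limit the classes did not separate, with Cd38 in 36.4% of Cd34-expressing and 35.7% of Cd34-low cells of MUL mouse 1 and in 37.1% of Cd34-expressing and 46% of Cd34-low cells of MUL mouse 2.

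All 4 plates gave Cd38 the same direction, with log2 differences of -4.90 and -1.83 in MUL mouse 1 and -4.34 and -4.66 in MUL mouse 2. Leaving out the highest cell of each class gave -3.24 and -4.32. For the gene Cd38 the mean difference was -4.30 after reweighting to detected genes and -4.32 in cells inside the interquartile range of detected genes. In PEM mouse 1, whose cells the choice did not use, Cd38 averaged 15.4 RPKM in Cd34-expressing and 42.6 RPKM in Cd34-low cells, and 3 of 19 Cd34-expressing cells passed 10 RPKM, so cells with both RNAs did occur. PEM mouse 2 had 2.4 RPKM in its 4 Cd34-expressing and 71.3 RPKM in its 21 Cd34-low cells, and PLT mouse 2 had 49.9 RPKM in 6 Cd34-expressing and 62.1 RPKM in 78 Cd34-low cells.

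Flt3 RNA was found in a few cells, nearly all of them Cd34-expressing. It averaged 6.67 RPKM in Cd34-expressing and 0.00834 RPKM in Cd34-low cells of MUL mouse 1, and 29.7 RPKM in Cd34-expressing and 1.75 RPKM in Cd34-low cells of MUL mouse 2. At 1 RPKM or more it was found in 2 of 22 Cd34-expressing cells of MUL mouse 1 (9.09%, exact 95% interval 1.12 to 29.2%) and in 0 of 56 Cd34-low cells, which allows up to 5.36%. In MUL mouse 2 it was found in 6 of 35 Cd34-expressing cells (17.1%, 6.56 to 33.6%) and in 1 of 50 Cd34-low cells (2%, 0.0506 to 10.6%). Each of the 8 Cd34-expressing cells with Flt3 was also above 10 RPKM. Outside the MUL mice, Flt3 was found in 1 of 19 Cd34-expressing and 0 of 74 Cd34-low cells of PEM mouse 1 and in 1 of 4 Cd34-expressing and 0 of 21 Cd34-low cells of PEM mouse 2, and it was listed at 0 in PLT mouse 2. Flt3 lay below the 10% filter and entered no test. Of the genes tested, 45.1% were held by a higher share of Cd34-expressing cells in both MUL mice. Among other named genes below the filter, Hoxb5 reached 1 RPKM in 8 of 57 Cd34-expressing and 6 of 106 Cd34-low cells. Fgd5 did so in 1 of 57 Cd34-expressing and 6 of 106 Cd34-low cells.

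**Figure D4:**
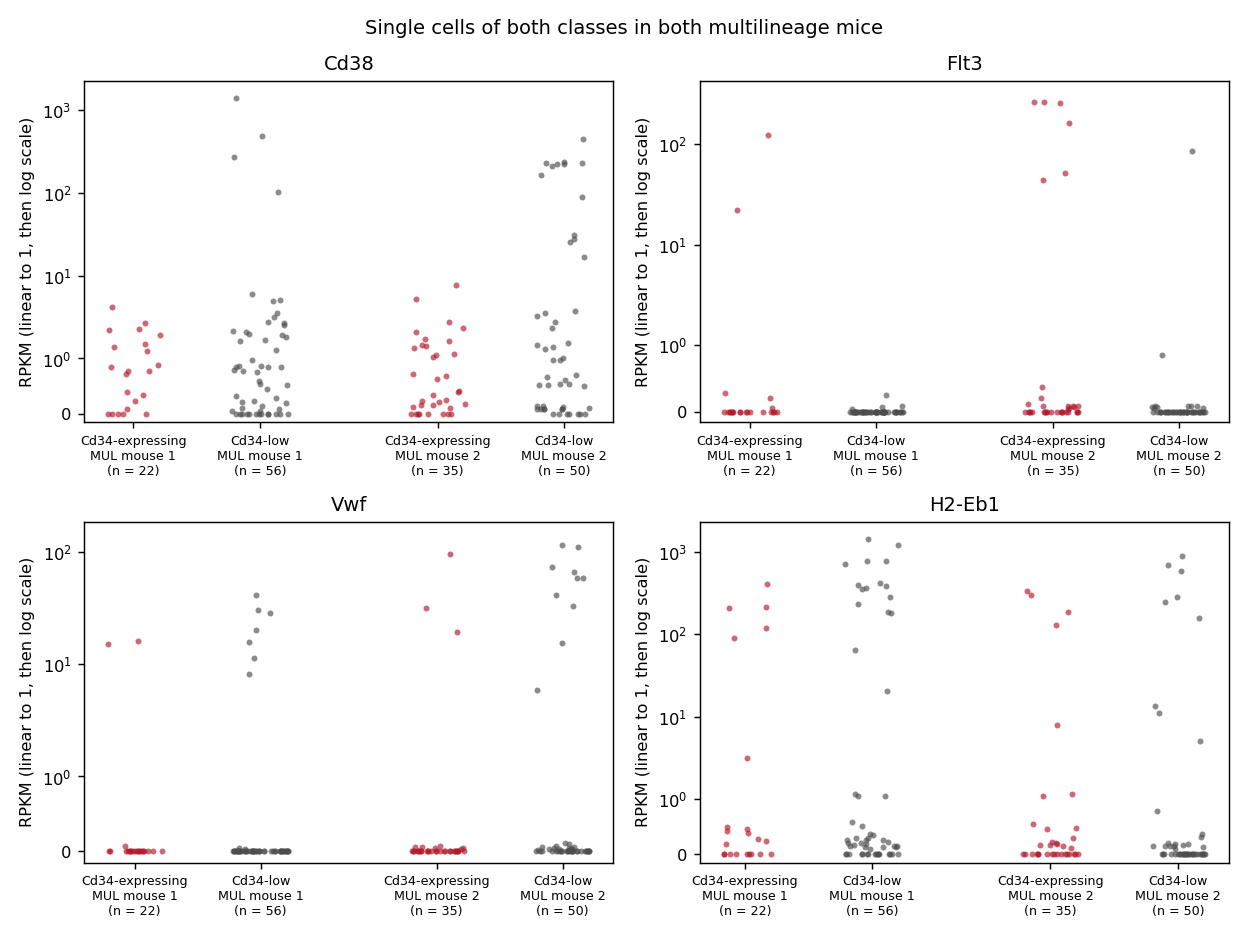
RPKM (linear up to 1, then on a log scale) of Cd38, Flt3, Vwf and H2-Eb1 in each cell of both MUL mice, Cd34-expressing left of Cd34-low. No Cd34-expressing cell reaches 10 RPKM of Cd38, and 8 of the 9 cells with Flt3 at 1 RPKM or more are Cd34-expressing.

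The 12 genes with the largest shared difference in each direction were named by rule, which fixes their direction, and none passed the test (limma adjusted p from 0.679 to 0.948). Those higher in Cd34-expressing cells were Wdr70, Ubap1, Tube1, Wrn, Cstf1, Toe1, Ccdc25, Pabpc4, Mex3a, Adamts10, Vamp4 and Celf1. By role, Celf1 binds RNA in splicing and decay, Cstf1 is a subunit of the factor that cleaves transcript 3′ ends, Pabpc4 binds poly(A) tails and Mex3a binds RNA. Ubap1 is a subunit of the ESCRT-I sorting complex, Wrn a DNA helicase, Tube1 a tubulin of centrioles and Vamp4 a membrane fusion protein. Without the highest cell of each class 10 of the 12 stayed at 2-fold or more in both mice, the exceptions being Tube1 and Toe1.

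Ubap1 and Celf1 were also carried by more of the Cd34-expressing cells. Ubap1 averaged 119 RPKM in Cd34-expressing and 22 RPKM in Cd34-low cells of MUL mouse 1, and 73.5 RPKM in Cd34-expressing and 13 RPKM in Cd34-low cells of MUL mouse 2. It was at 1 RPKM or more in 36.4% of Cd34-expressing and 12.5% of Cd34-low cells of MUL mouse 1 and in 28.6% of Cd34-expressing and 8% of Cd34-low cells of MUL mouse 2. The median shift in share over all genes was 4.71 and 4.0 percentage points. Ubap1 and Celf1 were named by their differences, so wider gaps in share are no test. Celf1 had means of 32.6 and 19.6 RPKM in Cd34-expressing cells of MUL mice 1 and 2, against 6.49 and 4.99 RPKM in Cd34-low cells. It was at 1 RPKM or more in 54.5% of Cd34-expressing and 14.3% of Cd34-low cells of MUL mouse 1 and in 37.1% of Cd34-expressing and 20% of Cd34-low cells of MUL mouse 2. Outside the MUL mice the values were mixed. In PEM mouse 1, Ubap1 averaged 62.4 RPKM in Cd34-expressing and 26.4 RPKM in Cd34-low cells, and Celf1 26.2 RPKM in Cd34-expressing and 9.89 RPKM in Cd34-low cells. PEM mouse 2, with 4 Cd34-expressing cells, had 66.6 RPKM of Ubap1 in Cd34-expressing and 39.6 RPKM in Cd34-low cells, but 0.0467 RPKM of Celf1 in Cd34-expressing and 30 RPKM in Cd34-low cells. For Wdr70 the highest Cd34-expressing cell of MUL mouse 1 held 681 RPKM, where the class means were 35 RPKM in Cd34-expressing and 4.21 RPKM in Cd34-low cells.

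The leading genes lower in Cd34-expressing cells were Cd38, Zfp958, Ms4a6c, Ube2q1, Fam219b, Senp5, Hells, Magohb, Jmjd1c, Rhbdl2, Hoxa7 and Ipo9. They include Hells, a chromatin remodeller needed for DNA methylation, Jmjd1c, a JmjC-domain protein, the homeobox factor Hoxa7, Magohb, a core protein of the exon junction complex, the SUMO protease Senp5 and the nuclear import receptor Ipo9. Without the highest cell of each class 11 of the 12 stayed at 2-fold or more in both mice, the exception being Rhbdl2. The share of cells at 1 RPKM or more was lower in Cd34-expressing cells of both mice for 5 of these 12 genes, beside 10.9% of all genes. For 9 of the 12 leading higher genes it was higher in both, beside 45.1% of all genes. The naming rule also asked for the same sign on the mean of log2 values, which weights detection, so these counts are no test. With Cd34 above 0 set against 0, the mean differences of Ube2q1, Hells, Magohb, Jmjd1c and Rhbdl2, and those of Vwf, Gata1 and Tal1 given further on, had the other sign.

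Zfp958, a zinc finger gene, averaged 1.56 RPKM in Cd34-expressing and 74.4 RPKM in Cd34-low cells of MUL mouse 1, and 1.03 RPKM in Cd34-expressing and 30.9 RPKM in Cd34-low cells of MUL mouse 2. A Cd34-low cell of 1932 RPKM in MUL mouse 1 and another of 1246 RPKM in MUL mouse 2 carried much of these means, and the gene was at 1 RPKM or more in 36.4% of Cd34-expressing and 30.4% of Cd34-low cells of MUL mouse 1 and in 25.7% of Cd34-expressing and 28% of Cd34-low cells of MUL mouse 2. Senp5 had means of 0.554 and 0.308 RPKM in Cd34-expressing cells of MUL mice 1 and 2, against 5.86 and 9.97 RPKM in Cd34-low cells. It was at 1 RPKM or more in 9.09% of Cd34-expressing and 19.6% of Cd34-low cells of MUL mouse 1, and in 0 of 35 Cd34-expressing cells and 20% of Cd34-low cells of MUL mouse 2. Hells had means of 6.99 and 8.15 RPKM in Cd34-expressing cells of MUL mice 1 and 2, against 38.4 and 38.7 RPKM in Cd34-low cells. Hells was at 1 RPKM or more in 4.55% of Cd34-expressing and 19.6% of Cd34-low cells of MUL mouse 1 and in 14.3% of Cd34-expressing and 12% of Cd34-low cells of MUL mouse 2, and a Cd34-low cell of 1171 RPKM in MUL mouse 2 carried much of that mean. In PEM mouse 1 the order of Hells was the other way, with 54 RPKM in Cd34-expressing and 13.7 RPKM in Cd34-low cells.

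The PEM mice were split the same way, and the direction of each gene was compared with that in the MUL mice. Of all genes tested, 1009 (17.9%) were higher and 1669 (29.6%) lower in Cd34-expressing cells of both PEM mice, where PEM mouse 2 had only 4 such cells and a median over genes of -0.34. Of the 87 genes 2-fold higher in both MUL mice, 16 (18.4%) were higher in both PEM mice, close to the 17.9% of all genes, and they were 1.59% of the genes higher in both PEM mice. Of the 116 genes 2-fold lower, 53 (45.7%) were lower in both PEM mice, against 29.6% of all genes, and they were 3.18% of the genes lower in both PEM mice. The sets were not matched to all genes for the share of cells that held them. In the 4 Cd34-expressing cells of PEM mouse 2, Magohb and Ipo9, leading lower genes, averaged 0 RPKM. The leading higher genes Ccdc25, Celf1 and Cstf1 averaged 0.15, 0.0467 and 46.6 RPKM there. What genes held by few cells add to the 45.7% was not tested. Among the 12 leading genes of each direction the PEM mice agreed for 3 of the higher and 5 of the lower. The interaction of class with MUL against PEM, fitted with limma over the 4 mice, called 0 genes, with 115 at an unadjusted p below 0.05 and a lowest adjusted p of 0.957.

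In the PEM mice alone limma called 1 gene (0.0177% of those tested, with 183 at an unadjusted p below 0.05). It was Beta-s, the symbol under which the table lists a beta-globin transcript, named here after its values were seen. It averaged 23.4 RPKM in Cd34-expressing and 2560 RPKM in Cd34-low cells of PEM mouse 1, and 57.2 RPKM in Cd34-expressing and 26600 RPKM in Cd34-low cells of PEM mouse 2. The MUL mice went opposite ways: Beta-s averaged 12.7 RPKM in Cd34-expressing and 4100 RPKM in Cd34-low cells of MUL mouse 1, and 1110 RPKM in Cd34-expressing and 31.4 RPKM in Cd34-low cells of MUL mouse 2. With the spread shared with the MUL mice 0 genes were called in the PEM mice.

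Among 28 tested genes of HSC identity and self-renewal, 2 were higher and 15 lower in Cd34-expressing cells of both MUL mice, 7.14% and 53.6% beside 23.2% and 27.3% of all genes. The list median was -0.33 in either mouse, beside -0.05 and -0.015 over all genes. No member passed the test. Tal1, a transcription factor needed to form HSCs, averaged 4.31 RPKM in Cd34-expressing and 11.8 RPKM in Cd34-low cells of MUL mouse 1, and 4.21 RPKM in Cd34-expressing and 10.9 RPKM in Cd34-low cells of MUL mouse 2. Zfp36, which promotes decay of AU-rich mRNAs, had means of 12.4 and 13.4 RPKM in Cd34-expressing cells of MUL mice 1 and 2, against 51.2 and 37.3 RPKM in Cd34-low cells. Meis1, a homeobox cofactor of HSCs, had means of 82 and 188 RPKM in Cd34-expressing cells of MUL mice 1 and 2, against 155 and 250 RPKM in Cd34-low cells. These 3 genes had limma adjusted p values of 0.948. Shares of cells did not follow the means: 13 of the 28 were held by more and 4 by fewer Cd34-expressing cells in both mice, beside 45.1% and 10.9% of all genes. On the mean of log2 values the median of the list HSC identity and self-renewal, averaged over the mice, was 0.08, of the other sign to -0.33, where that of all genes was 0.17 and 0.21. It was 0.12 with Cd34 above 0 set against 0.

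Some other genes of HSC identity changed sign between the mice, as did 11 of the 28 tested list members. The 2 members higher in both mice were Hoxa9 and Esam. Hlf, a factor of primitive HSCs, averaged 43.6 RPKM in Cd34-expressing and 18 RPKM in Cd34-low cells of MUL mouse 1, and 35.8 RPKM in Cd34-expressing and 49.2 RPKM in Cd34-low cells of MUL mouse 2. Procr, which encodes EPCR, averaged 30.8 RPKM in Cd34-expressing and 47.9 RPKM in Cd34-low cells of MUL mouse 1, and 103 RPKM in Cd34-expressing and 56.9 RPKM in Cd34-low cells of MUL mouse 2. Mecom and Gata2, both HSC transcription factors, also changed sign between the mice.

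Vwf (chr6:125552948-125686679 of mm10), the gene used to select the transplanted cell, averaged 1.42 RPKM in Cd34-expressing and 2.77 RPKM in Cd34-low cells of MUL mouse 1, and 4.21 RPKM in Cd34-expressing and 11.6 RPKM in Cd34-low cells of MUL mouse 2 (mean log2 difference -0.95 ± 0.50 SE, limma adjusted p = 0.948). It was at 1 RPKM or more in 2 of 22 Cd34-expressing and 7 of 56 Cd34-low cells of MUL mouse 1, and in 3 of 35 Cd34-expressing and 10 of 50 Cd34-low cells of MUL mouse 2. The Vwf-positive cells of the classes overlapped in level. In the PEM mice Vwf had means of 18 and 2.55 RPKM in Cd34-expressing cells, against 26.3 and 27.5 RPKM in Cd34-low cells, while PLT mouse 2 had 18.3 RPKM in Cd34-expressing and 14.9 RPKM in Cd34-low cells.

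Over the megakaryocyte-platelet list the counts were even, with 4 of 16 tested genes higher and 4 lower in Cd34-expressing cells of both MUL mice (25% each, beside 23.2% and 27.3% of all genes). Itga2b, the CD41 chain of platelets, had means of 18.6 and 2.87 RPKM in Cd34-expressing cells of MUL mice 1 and 2, against 25.1 and 9.16 RPKM in Cd34-low cells. Its share of cells went the other way, as it was at 1 RPKM or more in 22.7% of Cd34-expressing and 14.3% of Cd34-low cells of MUL mouse 1 and in 11.4% of Cd34-expressing and 10% of Cd34-low cells of MUL mouse 2, and on the mean of log2 values the gene Itga2b averaged 0.15 over the mice. Gata1, the erythroid and megakaryocytic factor, had means of 1.24 and 2.01 RPKM in Cd34-expressing cells of MUL mice 1 and 2, against 13.8 and 5.9 RPKM in Cd34-low cells, on 5 of 57 Cd34-expressing and 12 of 106 Cd34-low cells at 1 RPKM or more. Pf4, a platelet chemokine, split by mouse and averaged 11.9 RPKM in Cd34-expressing and 238 RPKM in Cd34-low cells of MUL mouse 1, and 24.9 RPKM in Cd34-expressing and 15.5 RPKM in Cd34-low cells of MUL mouse 2.

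Surface genes related to CD34 were compared next. Of 9 tested genes of the CD34 family, mucin-type proteins and their partners, 5 were higher and 1 lower in Cd34-expressing cells of both mice (55.6% and 11.1%, beside 23.2% and 27.3% of all genes), with list medians of 0.59 and 0.13, and none passed the test. The share of cells was higher in both mice for 4 and lower for 1, beside 45.1% and 10.9% of all genes. The median of list CD34 family and mucin-type surface proteins, averaged over the mice, was -0.05 with detected genes as a covariate. Cd164, a sialomucin of haematopoietic progenitors, averaged 169 RPKM in Cd34-expressing and 57.8 RPKM in Cd34-low cells of MUL mouse 1, and 218 RPKM in Cd34-expressing and 108 RPKM in Cd34-low cells of MUL mouse 2 (mean log2 difference 1.27 ± 0.35 SE, limma adjusted p = 0.948). It was at 1 RPKM or more in 40.9% of Cd34-expressing and 30.4% of Cd34-low cells of MUL mouse 1 and in 62.9% of Cd34-expressing and 40% of Cd34-low cells of MUL mouse 2. The 1 member lower in both mice was Cd44, a hyaluronan receptor, which had means of 18.9 and 28.7 RPKM in Cd34-expressing cells of MUL mice 1 and 2, against 40.9 and 37.8 RPKM in Cd34-low cells. Of 16 tested integrin and adhesion genes, 5 were higher and 7, among them Itgb1, lower in Cd34-expressing cells of both mice. These were 31.2% and 43.8%, beside 23.2% and 27.3% of all genes. Itga4, the alpha chain of the VLA-4 integrin, had the largest shared difference of this list. Its means were 21.5 and 18.8 RPKM in Cd34-expressing cells of MUL mice 1 and 2, against 10.1 and 8.52 RPKM in Cd34-low cells. On plate 1 of MUL mouse 1 Itga4 had the other sign, with a log2 difference of -1.105. Podxl, the nearest relative of Cd34 in the CD34 family list, was listed at 0 in MUL mouse 1. It averaged 0.777 RPKM in Cd34-expressing and 0.085 RPKM in Cd34-low cells of MUL mouse 2.

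Antigen presentation genes had lower means in Cd34-expressing cells of both mice for 9 of 21 tested members and higher for 1 (42.9% and 4.76%, beside 27.3% and 23.2% of all genes), with medians of -0.18 and -0.28, and none passed the test. The class II genes H2-Aa, H2-Ab1 and H2-Eb1 and the invariant chain gene Cd74 were all among the 9. The median of list Antigen presentation genes, averaged over the mice, was 0.009 on the mean of log2 values, of the other sign. The shares of cells also did not follow the means. They were higher in Cd34-expressing cells of both mice for 7 of the 21 members and lower for 1. Of all genes, 45.1% were higher and 10.9% lower in share. With detected genes as a covariate the gene Cd74 had a mean difference of 0.12, of the other sign. H2-Eb1 averaged 47.8 RPKM in Cd34-expressing and 140 RPKM in Cd34-low cells of MUL mouse 1, and 27.8 RPKM in Cd34-expressing and 57.9 RPKM in Cd34-low cells of MUL mouse 2. H2-Aa had means of 221 and 131 RPKM in Cd34-expressing cells of MUL mice 1 and 2, against 363 and 289 RPKM in Cd34-low cells. Cd74 had means of 259 and 106 RPKM in Cd34-expressing cells of MUL mice 1 and 2, against 409 and 201 RPKM in Cd34-low cells. The levels of the classes overlapped widely, and H2-Eb1 was at 1 RPKM or more in 27.3% of Cd34-expressing and 33.9% of Cd34-low cells of MUL mouse 1 and in 20% of Cd34-expressing and 18% of Cd34-low cells of MUL mouse 2. Ifngr1, a chain of the interferon gamma receptor, belongs to the list of niche and growth signal receptors. It had means of 97.3 and 113 RPKM in Cd34-expressing cells of MUL mice 1 and 2, against 157 and 252 RPKM in Cd34-low cells. The interferon receptor genes Ifnar1 and Ifnar2 of the same list went the other way and were higher in Cd34-expressing cells of both mice. Of 22 tested interferon response genes 3 were higher and 6 lower in both mice (13.6% and 27.3%).

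Quiescence genes had lower means in Cd34-expressing cells of both mice for 5 of 8 tested members and higher for 1 (62.5% and 12.5%, beside 27.3% and 23.2% of all genes), with medians of -0.40 and -0.56, and none passed the test. The share of cells was higher in both mice for 2 members and lower for 0, beside 45.1% and 10.9% of all genes. Cdkn1b, the cell cycle inhibitor p27, had means of 107 and 75.5 RPKM in Cd34-expressing cells of MUL mice 1 and 2, against 143 and 106 RPKM in Cd34-low cells. Txnip, a redox regulator, had means of 213 and 133 RPKM in Cd34-expressing cells of MUL mice 1 and 2, against 289 and 189 RPKM in Cd34-low cells. Txnip was, against these means, at 1 RPKM or more in 90.9% of Cd34-expressing and 73.2% of Cd34-low cells of MUL mouse 1 and in 77.1% of Cd34-expressing and 64% of Cd34-low cells of MUL mouse 2, and its difference on the mean of log2 values was 0.14 and 0.31. With detected genes as a covariate the gene Txnip had a mean difference of 0.18 and the gene Cdkn1b 0.14, both of the other sign. The median of the list Quiescence genes, averaged over the mice, was 0.06 in cells inside the interquartile range of detected genes, of the other sign.

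Cell cycle genes split by mouse. The median of 33 tested G2 and M phase genes was -0.22 in MUL mouse 1 and 0.71 in MUL mouse 2, and that of 18 S phase genes -0.23 and 0.39. Mki67, a marker of cycling cells, averaged 18.5 RPKM in Cd34-expressing and 13.9 RPKM in Cd34-low cells of MUL mouse 1, and 8.73 RPKM in Cd34-expressing and 4.77 RPKM in Cd34-low cells of MUL mouse 2. It was at 1 RPKM or more in 18.2% of Cd34-expressing and 12.5% of Cd34-low cells of MUL mouse 1 and in 14.3% of Cd34-expressing and 8% of Cd34-low cells of MUL mouse 2. The mean log2 difference of the gene Mki67, 0.57, was -1.02 in cells inside the interquartile range of detected genes, -0.99 without cells holding markers of other types and -0.16 with detected genes as a covariate. Of 6 tested G1 cyclins and CDKs 3 were higher and 0 lower in Cd34-expressing cells of both mice (50% and 0%, beside 23.2% and 27.3% of all genes), with medians of 0.22 and 0.36.

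**Figure D5:**
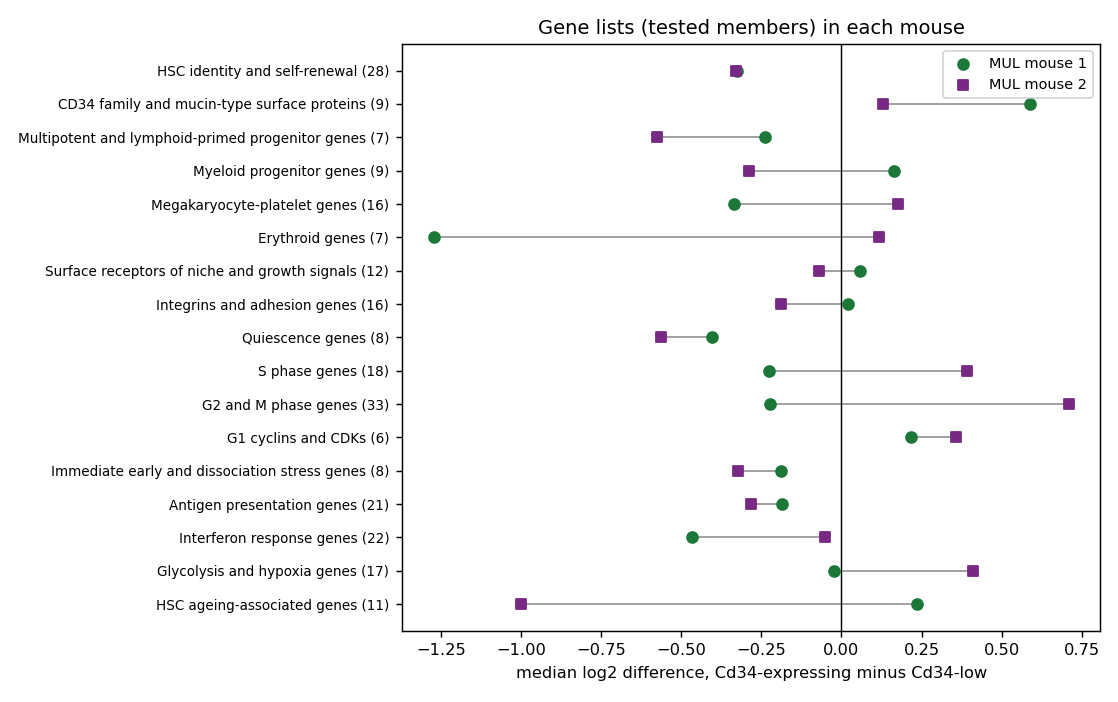
Median log2 difference (Cd34-expressing minus Cd34-low) of the tested members of 17 gene lists, MUL mouse 1 as circles and MUL mouse 2 as squares, with the number of tested members in brackets. HSC identity has -0.33 in both mice, and G2 and M phase genes have -0.22 and 0.71.

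Progenitor and lineage lists gave no common picture, and their counts stand beside the 23.2% higher and 27.3% lower of all genes. Of 7 tested multipotent and lymphoid-primed genes 1, Cd27, was higher and 3, among them Mef2c and Bcl11a, lower in Cd34-expressing cells of both mice. On the mean of log2 values the gene Bcl11a averaged 0.18 over the mice, of the other sign to its means. Cd27, a receptor of the tumour necrosis factor family, averaged 175 RPKM in Cd34-expressing and 125 RPKM in Cd34-low cells of MUL mouse 1, and 196 RPKM in Cd34-expressing and 180 RPKM in Cd34-low cells of MUL mouse 2. Of 9 myeloid progenitor genes 3 were higher and 2 lower in both mice. Sfpi1, which encodes the myeloid factor PU.1, was one of the lower and had means of 17.3 and 46.4 RPKM in Cd34-expressing cells of MUL mice 1 and 2, against 47.7 and 57.1 RPKM in Cd34-low cells. Erythroid genes had medians of -1.27 and 0.12 over 7 members, and genes associated with HSC ageing 0.24 and -1.001 over 11 members. The glycolysis and hypoxia list had 7 of 17 tested genes higher and 3 lower, and the list of niche and growth signal receptors 4 of 12 higher and 3 lower.

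Markers of other cells were looked for in both classes. Mature erythroid markers summed to 68.8 RPKM in Cd34-expressing and 4350 RPKM in Cd34-low cells of MUL mouse 1, and to 1300 RPKM in Cd34-expressing and 51.4 RPKM in Cd34-low cells of MUL mouse 2. Beta-s led them except in Cd34-expressing cells of MUL mouse 1, and Hba-a2 and Hbb-b2 were at 0 in all cells. Neutrophil markers summed to 180 and 385 RPKM in Cd34-expressing cells of the 2 mice, against 298 and 2110 RPKM in Cd34-low cells. Prtn3 led them, except in Cd34-low cells of MUL mouse 2, where S100a8 led at 1110 RPKM. At least 3 were held by 0 of 22 Cd34-expressing and 1 of 56 Cd34-low cells of MUL mouse 1. In MUL mouse 2 it was 2 of 35 Cd34-expressing and 5 of 50 Cd34-low cells. Elane, Mpo and Ctsg were at 0 in all cells. Macrophage and monocyte markers summed to 519 and 534 RPKM in Cd34-expressing against 451 and 754 RPKM in Cd34-low cells. They were led by Lyz2, at 428 to 689 RPKM, with Csf1r at 0 in all cells. B cell markers summed to 19 and 14.9 RPKM in Cd34-expressing against 42.7 and 63.5 RPKM in Cd34-low cells. Cd79b led them except in Cd34-expressing cells of MUL mouse 2, where Blnk led, and Pax5 was at 0 in all cells. T and NK cell markers summed to 237 and 143 RPKM in Cd34-expressing against 228 and 56.2 RPKM in Cd34-low cells, led by Nkg7, with Cd3e at 0 in all cells. Mast cell and basophil markers were led by Gata2, which HSCs express, with Mcpt8 and Prss34 at 0 in all cells.

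Endothelial and stromal markers summed to 136 and 219 RPKM in Cd34-expressing cells of the 2 mice, against 115 and 180 RPKM in Cd34-low cells. They were led by Egfl7, which HSCs also express, and Cdh5, Kdr, Plvap and Cxcl12 were at 0 in all cells. At least 3 of the 15 were found in 31.8% of Cd34-expressing and 8.93% of Cd34-low cells of MUL mouse 1, and in 42.9% of Cd34-expressing and 28% of Cd34-low cells of MUL mouse 2. The part of these cells in the class differences was not tested beyond leaving cells out. Without the cells that held 3 or more markers of a mature blood cell list, the gene Cd38 had a mean log2 difference of -4.56, 0 genes were called by limma (308 at an unadjusted p below 0.05), and 122 genes were 2-fold higher and 135 lower in Cd34-expressing cells of both mice.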

How the data were processed

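Libraries of index-sorted single HSCs used the SMARTer Ultra Low kit, as the labels' protocols state. The authors deposited a table of RPKM values for 22645 gene symbols, and a cell table with, per the file headers, a count of mapped reads, a count of detected genes, and mitochondrial reads in percent. TopHat, featureCounts and mm10 appear in the submitters' processing notes; versions are not given in the sources used here. RPKM values did not resolve into whole reads, which left no count model. A cell's mouse is the prefix of its title, and mouse numbers follow accession order. No cell was filtered out, no doublet caller was used, and the highest correlation between 2 MUL cells was 0.631. Gapdh was at 0 in 19 MUL cells and Actb in 0, so a 0 is given as listed at 0.

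Since cells are no replicates, each class of each mouse gave 1 mean RPKM per gene, tested as log2(mean + 1) with limma 3.58.1 in R 4.3.3 (trended variance, Benjamini-Hochberg over 5641 genes, threshold 0.05). The mouse was a block, because both classes come from the same animal. With 2 mice there is 1 residual degree of freedom per gene. Limma moderated each variance toward a trend over all genes, which brought the degrees of freedom to a median of 6.739. The SE and p-value of a gene therefore rest largely on the spread seen over other genes. They reach no further than these 2 clones. Gene positions are from RefSeq on GRCm38 (mm10). The members, gene lists and tests were chosen with earlier results of these data known. Named genes were the 12 per direction with the largest smaller difference of the 2 mice, among genes with the same sign on both log2 scales, a set of HSC and lineage genes, and up to 4 members of each list. Exact Clopper-Pearson 95% intervals cover counting error only, and a count of 0 allows up to 3 counts. Alternatives changed the filter, pseudocount, scale, normalization, Cd34 limit, cells used and block.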

Additional observations from a re-analysis of the deposited data

How the results depend on the processing

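No gene was called by limma under any of 21 alternatives. The lowest limma adjusted p was 0.426 for a named gene and 0.151 over all genes, the latter with a filter on class means. In the main setting 258 genes had an unadjusted p below 0.05. The count of genes 2-fold in both mice, 203, became 991 with a filter on class means or with none, 42 with a pseudocount of 10, 445 in cells inside the interquartile range of detected genes, 55 with detected genes as a covariate, 491 without cells holding markers of other types, 435 with Cd34 above 0 against 0 and 512 with 10 RPKM or more against 0. With 1 mouse left out it ran from 1078 to 1528, since only 1 mouse then has to pass. The share of these genes that was higher in Cd34-expressing cells, 42.9%, became 100% on the mean of log2 values, 78.2% with Cd34 above 0 against 0, 69.7% with 10 RPKM or more against 0 and 65.5% with detected genes as a covariate. Without the replicate block, 0 genes were called, 211 had an unadjusted p below 0.05 and 203 were 2-fold. The result for detected genes by class, a mean difference of 309.25, was 410 within plates, 438.5 with 10 RPKM or more against 0, and 251.5 to 367 with 1 mouse left out. The 1 gene called in the PEM mice became 0 with a pseudocount of 0.1, on the mean of log2 values, with Cd34 above 0 against 0, and with the spread shared with the MUL mice. The last of these, leaving out single highest cells, and the removal of mature blood marker cells were chosen after seeing the data.

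Of 1974 values of the 94 named genes tested, at least 546 moved by more than the spread between the mice, and 104 had the other sign: 28 with Cd34 above 0 against 0, 17 with detected genes as a covariate, 11 inside the interquartile range of detected genes, 10 on the mean of log2 values and the rest under other alternatives. Of the 84 named genes with 1 sign in both mice, 36 had the other sign under at least 1 alternative. With Cd34 above 0 against 0, which moves cells with traces into the first class, log2 differences were 0.19 for Ube2q1, 0.60 for Hells, 0.80 for Magohb, 0.96 for Jmjd1c, 1.96 for Rhbdl2, 0.29 for Gata1, 0.45 for Tal1, 0.18 for the gene Vwf, 0.37 for the gene Txnip and 0.24 for the gene Bcl11a. Rhbdl2 had 0.047 inside the interquartile range of detected genes and Gata1 0.51 without cells holding markers of other types. On the mean of log2 values the gene Txnip had 0.22, the gene Itga2b 0.15 and the gene Bcl11a 0.18. The cause was not tested. Of 504 values of the 24 leading genes, 6 had the other sign. The 2 MUL mice, of 1 experiment, had 22 and 35 Cd34-expressing cells, and the 2 PEM mice 19 and 4. With so few mice and cells, differences below the spread between clones could not be detected.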
